A study of Homo sapiens with 12 samples.

Results

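RNA-seq of A549 cells carrying AHR S489D (SD) was compared with RNA-seq of A549 cells carrying AHR S489A (SA). These are 6 of the 12 libraries of the study, 3 for each of the mutant lines, and they were chosen by the genotype in their labels. The study asked how phosphorylation of the aryl hydrocarbon receptor (AHR) at residue S489 changes lung adenocarcinoma cells. A549 is an established human lung adenocarcinoma cell line. SD puts aspartate, a phosphomimetic residue, and SA puts alanine, which cannot be phosphorylated, at that position (S489D and S489A, with the amino acid of the wild-type protein first and positions counted from the first methionine). The other 6 libraries are from cells with an empty vector (V) and from cells with wild-type AHR (WT).

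All 4 lines were made from the original A549 cells with the lentiviral vector pLV-EF1a-IRES-Hygro, whose EF1a promoter drives the insert, and AHR was tagged with HA. Every line was selected with hygromycin at 200 µg/ml for 72 h and grown in RPMI 1640 with serum. Each construct was represented by 1 stable line, so the mutation cannot be told apart from other differences between the lines. A549 cells also express their own AHR, as the V libraries show. The 3 libraries of each line are labelled as biological replicates, and their cultures are not described further, so the p-values measure the spread between these libraries. RNA came from whole cultures, in which fewer cells of a kind and less RNA per cell cannot be told apart.

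AHR is a ligand-activated transcription factor. In the cytoplasm it is held by an HSP90 chaperone complex, and in the nucleus it pairs with ARNT and binds xenobiotic response elements, whose core is GCGTG. Its best known targets include the cytochrome P450 genes CYP1A1 and CYP1B1, the repressor AHRR and the ADP-ribosyltransferase TIPARP. The changed codon is shown in the reference sequence, since it is the only designed difference between the constructs. The S489 codon is among the 848 codons of transcript ENST00000242057, in exon 10 of AHR on the plus strand of GRCh38, chr7:17339290-17339292, and it encodes serine. In the 63 bases of coding sequence around it, the codon is in capitals.

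AHR S489 codon: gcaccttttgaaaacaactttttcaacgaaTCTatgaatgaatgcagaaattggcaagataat

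The 3 SA libraries held 9986096 to 11765576 expected counts and the 3 SD libraries 9334091 to 11207920. Levels are given as CPM, counts scaled to a common library total, after TMM scaling over all 12 libraries, and 3 counts in a library correspond to 0.255 to 0.321 CPM in the SA and SD libraries. Such floors cover counting error only. In the 6 libraries, keratin genes KRT8 and KRT18 were at 1910 to 2620 CPM, KRT7 at 1370 to 1590 and KRT19 at 0 to 0.536. CDKN2A, which A549 cells lack, was at 0 in each. NKX2-1, SFTPB and SFTPC, markers of differentiated lung epithelium, were at 0 to 0.256 CPM and EPCAM at 0.601 to 1.45. Of the immune markers, PTPRC, CD3E and LYZ were at 0 to 0.171 CPM, and CD68 was at 30.2 to 36.7. All 4 endothelial markers were at 0.0883 CPM or less. The 6 fibroblast markers summed to 7.51 to 8.39 CPM in SA and 7.61 to 10.2 in SD, with COL1A2 and DCN at 0 throughout. Of the neural markers, MAP2 was at 3.09 to 7.61 CPM and NEFL at 1.02 to 3.43, with SOX10 and NEFM at 0 to 0.445.

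AHR was the first gene examined, because it is the gene that was introduced. The gene itself (ENSG00000106546) is given together with ENSG00000283321, a readthrough gene on the same strand (chr7:17299295-17467234) that shares 66.9% of its 50-base sequences with AHR. Whether reads of the introduced AHR were counted at ENSG00000283321 was not tested, and the RSEM annotation and strand setting are not given in the sources used here. AHR alone was at 219.4, 219.6 and 229.7 CPM in SA and at 202.1, 207.9 and 220.0 in SD, and these ranges overlapped. ENSG00000283321 was at 151.7, 186.9 and 170.5 CPM in SA and at 90.1, 96.9 and 69.6 in SD, and was at 0 in all 3 V libraries. It was lower in every SD library than in any SA library (log2 fold change −0.99, SE 0.09, adjusted p = 5.31e-06, edgeR quasi-likelihood test with Benjamini-Hochberg adjustment, as for every adjusted p below unless another test is named). The sum of both was 371.1, 406.5 and 400.2 CPM in SA and 292.2, 304.8 and 289.6 in SD, so that every SD library was below every SA library. On the log2 scale the sum differed by −0.41 (adjusted p = 0.0011). The sum was 69.1 ± 4.51 CPM in V and 469 ± 16.4 in WT (mean and standard deviation, s.d., n = 3), so by this sum all AHR-transduced lines were above the vector line and the S489D line was the lowest of them. ENSG00000283321 held 40.9% to 46.0% of the sum in SA and 24% to 31.8% in SD. Whether the lower sum in SD cells took part in the differences described below was not tested.

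**Figure D1:**
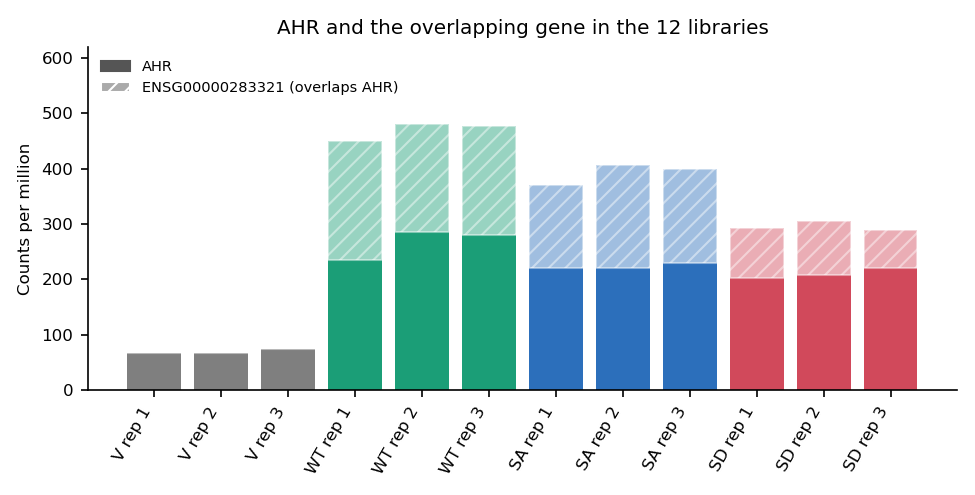
AHR (solid) and the overlapping gene ENSG00000283321 (hatched), stacked, in CPM for each of the 12 libraries, coloured by line. The stacked height was 371.1 to 406.5 in the SA libraries and 289.6 to 304.8 in the SD libraries, and the hatched part was absent from the V libraries.

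Between SD and SA, 33 of 15030 tested genes passed the threshold of 0.05 on the adjusted p, which is 0.22% of those tested. Of these, 24 were higher in SD (0.16% of the tested genes) and 9 were lower (0.0599%). All 33 had SD libraries that did not overlap with the SA libraries, a separation found for 13.6% of all tested genes. At an unadjusted p under 0.05, 4.52% of the tested genes were higher in SD and 4.01% lower. Without regard to p, 7546 of the 15030 were higher in SD and 7484 lower. The gene lists used below were chosen with earlier results of these data known. Most of the differences were small. Of 109 tested genes with a log2 fold change beyond 1 in either direction, 7 were called. The genes higher in SD included fibrillins (FBN1, FBN2), collagen chains (COL12A1, COL4A5, COL4A6, COL5A2), versican (VCAN), the gelatinase MMP2, complement components (C3, C1S) and PAPPA. The number of calls depended on single libraries. It was 11 without SA replicate 2, 16 without SA replicate 3, 19 without SD replicate 2 and 56 without SD replicate 3. In every one of the 6 fits that left out 1 library, 8 of the 33 genes were called: SLC1A3, CEACAM6, FAM220A, FAM156B, ZBTB45P1, ENSG00000268173, ENSG00000283321 and ENSG00000286075. Only SLC1A3 and CEACAM6 of these share at most 50% of their sequence with another gene. ZBTB45P1 and ENSG00000268173 were at 0 in every SD library and passed the count filter only through SA. FAM220A, at 0 to 1.74 CPM in SD, also passed it only through SA. ENSG00000286075, at 0 to 6.95 CPM in SA, passed it only through SD. All of these genes therefore had to differ between the lines, and their repeated calls add no support.

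**Figure D2:**
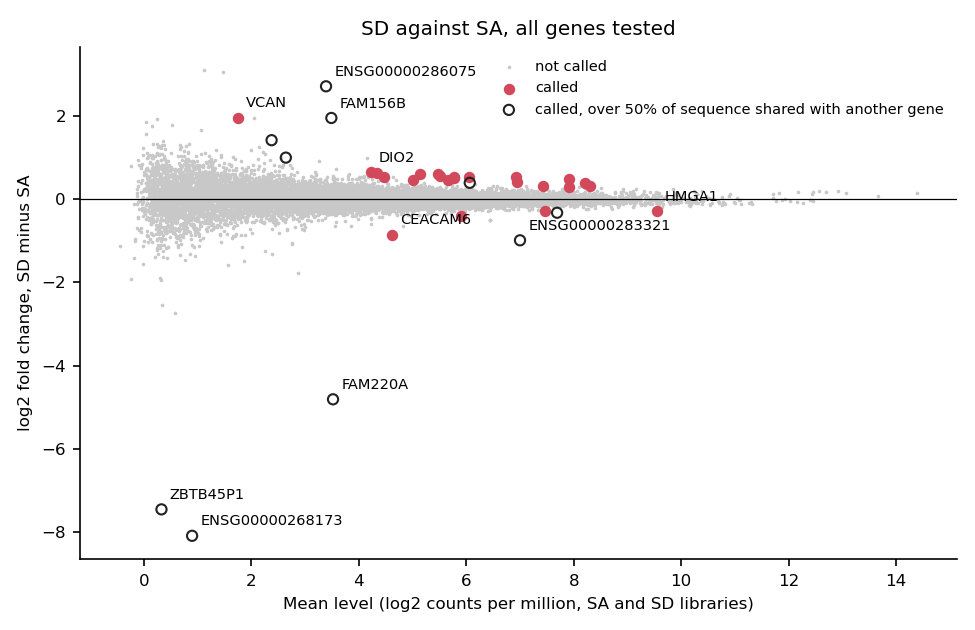
Log2 fold change (SD minus SA) against mean level (log2 CPM over the SA and SD libraries) for the 15030 tested genes, in grey where not called. Filled red points are the 23 called genes that share at most 50% of their sequence with another gene, and open circles are the 10 called genes that share more. The 2 lowest open circles were at 0 in all SD libraries.

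A share of the calls concerned genes whose reads cannot be assigned with certainty. In 10 of the 33, over 50% of the 50-base sequences of the GENCODE transcripts also occur in another gene. One such pair was FAM220A (chr7:6329411-6348981) and ENSG00000286075, which GENCODE names SAGSIN1 and whose transcripts lie entirely within sequence shared with FAM220A. FAM220A was at 20.9, 18.7 and 24.4 CPM in SA and at 0.278, 0 and 1.74 in SD. ENSG00000286075 moved the other way, from 1.22, 6.95 and 0 CPM in SA to 16.1, 19.4 and 19.2 in SD. Their sum was 22.1, 25.6 and 24.4 CPM in SA and 16.4, 19.4 and 20.9 in SD (log2 fold change −0.35, adjusted p = 0.363), and was not called. ENSG00000286075 on its own was called by the main test (adjusted p = 0.00734) but not by DESeq2 (0.878) or in the fit of all 12 libraries (0.0790). In V replicate 3 the reads were likewise at FAM220A (26.0 CPM, with ENSG00000286075 at 0), while V replicates 1 and 2 had 0 and 0.174 CPM at FAM220A.

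FAM156B shares all of its 50-base sequences with FAM156A. FAM156A itself was at 89.3, 69.9 and 64.9 CPM in SA and at 77.1, 61.1 and 69.35 in SD, with overlapping ranges. FAM156B was at 3.17, 4.65 and 5.99 CPM in SA and at 20.1, 21.8 and 12.2 in SD. The sum with FAM156A was 92.5, 74.5 and 70.9 CPM in SA and 97.2, 82.9 and 81.5 in SD, with overlapping ranges (log2 fold change 0.14, adjusted p = 0.690). FAM156B was not called in the fit of all 12 libraries (adjusted p = 0.165). HSPA1B, an inducible HSP70 gene, shares 71.6% with its neighbour HSPA1A. HSPA1B was at 219.0, 222.2 and 248.6 CPM in SA and at 176.7, 180.4 and 190.9 in SD. Every SD library was below all 9 others, but the highest only barely, with V replicate 3 at 191.1. The summed HSP70 genes were at 538.0, 538.9 and 545.4 CPM in SA and at 440.1, 443.6 and 473.6 in SD (log2 fold change −0.26, adjusted p = 0.0645), without overlap but just outside the threshold. The call of HSPA1B itself was lost without SA replicate 2, SA replicate 3 or SD replicate 2 (adjusted p from 0.0851 to 0.206).

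The processed pseudogene ZBTB45P1 was at 1.98, 2.20 and 1.96 CPM in SA and at 0 in all SD libraries. Its SA mean was 6.38-fold above the floor of 3 counts per library in SD. Summed with the 3 genes that share its sequence, it was at 42.3 ± 4.88 CPM in SA and 40.1 ± 0.401 in SD (s.d., n = 3, adjusted p = 0.880). The readthrough gene ENSG00000268173, which joins PIK3R2 and IFI30, was at 1.21, 1.68 and 6.65 CPM in SA and at 0 in every other library of the study. Its SA mean was 9.90-fold above the floor in SD. That mean was raised by SA replicate 3, and the counts in single SA libraries ran from 12 to 75. PIK3R2, IFI30 and the readthrough gene summed to 81.3 ± 2.71 CPM in SA and 81.4 ± 8.03 in SD (s.d., n = 3). The long noncoding RNA ENSG00000093100 shares 84.1% with MICAL3, and the readthrough gene ENSG00000257524 shares 61.8% with ST6GALNAC6. Both were called higher in SD (log2 fold changes 1.41 and 0.99), and the sums with their partners had log2 fold changes of −0.05 and −0.07 and were not called. The call of ENSG00000093100 was lost without SA replicate 2 or SD replicate 2 (adjusted p = 0.0559 and 0.0647), and that of ENSG00000257524 was lost without any one of the 6 libraries. With counts summed over all genes that share sequence, an alternative chosen after seeing the data, 20 features were called, 16 higher and 4 lower in SD. Of the 10 sums, those of AHR and of PAPPA were called.

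**Figure D3:**
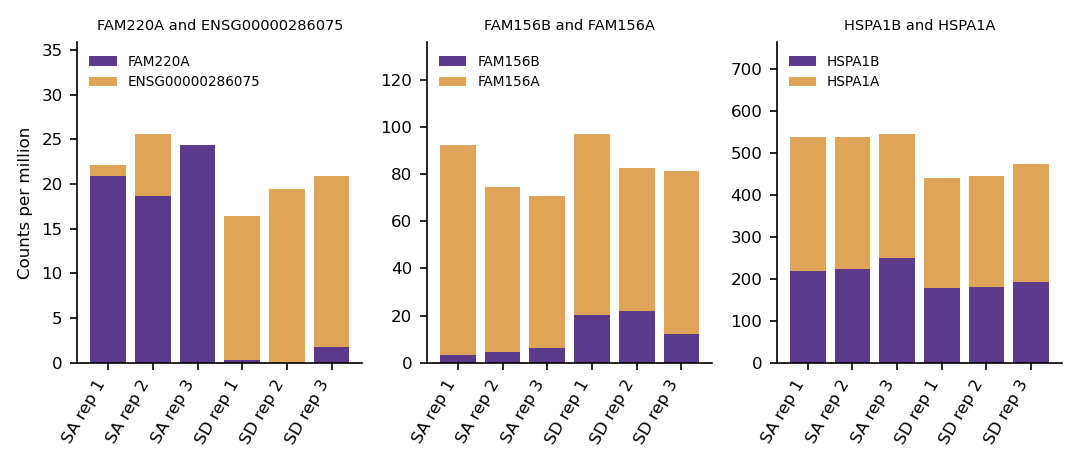
Levels in CPM in the 6 SA and SD libraries for 3 pairs of genes that share sequence, stacked so that the bar height is the sum. FAM220A was the larger part of its bar in SA (18.7 to 24.4) and a small part or none in SD (0 to 1.74), with sums of 22.1 to 25.6 and 16.4 to 20.9. The sums of FAM156B and FAM156A overlapped between the lines, and those of HSPA1B and HSPA1A did not.

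The other 23 called genes, 19 higher and 4 lower in SD, had absolute log2 fold changes of 0.28 to 1.95. Fibrillin 1 and fibrillin 2 form the microfibrils on which elastic fibres are built. FBN1 (chr15:48408306-48645849, minus strand) was at 59.0, 49.95 and 53.9 CPM in SA and at 83.9, 75.9 and 73.0 in SD. The 3 SD libraries lay above all 9 other libraries (log2 fold change 0.52, SE 0.08, adjusted p = 0.00323). FBN2 (chr5:128257909-128659185, minus strand) was at 36.4, 37.0 and 37.5 CPM in SA and at 53.5, 60.1 and 47.8 in SD (log2 fold change 0.54, SE 0.09, adjusted p = 0.00557). Its level in V, at 62.5 ± 3.26 CPM (s.d., n = 3), overlapped with that in SD. Both calls were lost without SA replicate 2 (adjusted p = 0.0513 for each), and that of FBN2 also without SD replicate 2 (0.0535). VCAN, which encodes the large matrix proteoglycan versican, had the largest fold change of the 23. It was at 1.90, 1.28 and 0.883 CPM in SA and at 6.71, 5.90 and 3.12 in SD (log2 fold change 1.95, SE 0.35, adjusted p = 0.0161), a low level with a wide spread, and the call was lost without SA replicate 2, SA replicate 3, SD replicate 1 or SD replicate 2 (0.0793 to 0.131). DESeq2 gave VCAN no adjusted p and so did not call it. Over the whole list of elastic fibre and matricellular genes, 22 of 27 tested members were higher in SD and 5 lower (median log2 fold change 0.15). Of these, 3 were called higher, against 0.16% of all tested genes. At an unadjusted p under 0.05, 7 were higher and none lower, against 4.52% and 4.01% of all tested genes. The list was chosen with earlier results of these data known and holds FBN1, FBN2 and VCAN, so these counts are not independent support. Among those not called were EFEMP1, an elastic fibre glycoprotein gene (0.53, adjusted p = 0.0991), EDIL3 (0.46, adjusted p = 0.127) and SPARC (1.17, adjusted p = 0.289).

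Collagens gave 4 further calls. COL12A1, a fibril-associated collagen, was at 30.5, 29.1 and 24.4 CPM in SA and at 47.3, 44.2 and 36.3 in SD (log2 fold change 0.61, SE 0.11, adjusted p = 0.0126). COL5A2, a chain of the fibril-regulating collagen V, was at 289.2, 245.7 and 237.1 CPM in SA and at 374.7, 326.5 and 298.5 in SD (0.37, SE 0.08, adjusted p = 0.0480), with the lowest SD library only slightly above the highest SA library. The basement membrane chains COL4A5 and COL4A6 are transcribed in opposite directions from neighbouring start sites on chromosome X. COL4A5 was at 116.8, 104.9 and 96.8 CPM in SA and at 160.5, 132.5 and 129.9 in SD (0.41, SE 0.08, adjusted p = 0.0295). COL4A6 was at 17.7, 17.9 and 18.6 CPM in SA and at 27.0, 25.7 and 25.2 in SD (0.52, SE 0.10, adjusted p = 0.0295). All 4 calls were lost without SA replicate 2 (adjusted p from 0.0617 to 0.310), SA replicate 3 (0.0793 to 0.287), SD replicate 1 (0.0523 to 0.157) or SD replicate 2 (0.0538 to 0.165). That of COL4A6 was also lost without SA replicate 1 (0.0622), and that of COL5A2 with DESeq2 (0.342). In the list of collagens, 16 of 18 tested members were higher in SD and 2 lower (median log2 fold change 0.12), with a lowest value of −0.04 and 5 at an unadjusted p under 0.05, the fifth being COL5A1 (0.27, adjusted p = 0.129). At that p, 4.52% of all tested genes were higher in SD, and 0.16% of all tested genes were called higher. The collagen list, too, was chosen with earlier results of these data known. Of 26 tested integrin and laminin genes, 17 were higher and 9 lower (median 0.08), and none was called.

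The starts of COL4A5 and COL4A6 are 380 bases apart in RefSeq (GRCh38.p14), so the 250 bases before each start overlap, and both are printed because both genes were called. The same window is shown for COL12A1 and FBN1, which contain the AHR core motif, and for DIO2, the gene the study followed, which does not. Capitals mark the motif GCGTG, or CACGC where it is on the other strand. The windows are COL4A5 at chrX:108439588-108439837 (plus strand), COL4A6 at chrX:108439459-108439708 (minus), COL12A1 at chr6:75206054-75206303 (minus), FBN1 at chr15:48644971-48645220 (minus) and DIO2 at chr14:80211505-80211754 (minus).

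COL4A5: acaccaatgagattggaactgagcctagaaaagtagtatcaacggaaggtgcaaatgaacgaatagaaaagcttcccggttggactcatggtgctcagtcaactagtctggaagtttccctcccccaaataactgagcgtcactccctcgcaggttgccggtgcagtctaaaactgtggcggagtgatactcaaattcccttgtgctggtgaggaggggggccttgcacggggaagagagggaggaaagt
COL4A6: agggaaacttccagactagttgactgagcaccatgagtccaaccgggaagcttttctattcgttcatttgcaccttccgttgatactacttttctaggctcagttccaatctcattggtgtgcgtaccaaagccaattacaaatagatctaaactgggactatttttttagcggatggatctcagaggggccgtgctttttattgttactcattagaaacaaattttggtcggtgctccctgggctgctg
COL12A1: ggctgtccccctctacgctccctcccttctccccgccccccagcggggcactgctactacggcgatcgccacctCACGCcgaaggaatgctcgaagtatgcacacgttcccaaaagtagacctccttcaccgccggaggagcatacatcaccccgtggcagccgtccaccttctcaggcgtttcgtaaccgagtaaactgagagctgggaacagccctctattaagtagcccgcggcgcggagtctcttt
FBN1: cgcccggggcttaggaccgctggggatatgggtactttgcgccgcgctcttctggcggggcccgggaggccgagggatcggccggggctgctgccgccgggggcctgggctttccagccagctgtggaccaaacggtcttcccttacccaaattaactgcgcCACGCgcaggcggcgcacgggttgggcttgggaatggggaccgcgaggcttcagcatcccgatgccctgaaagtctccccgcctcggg
DIO2: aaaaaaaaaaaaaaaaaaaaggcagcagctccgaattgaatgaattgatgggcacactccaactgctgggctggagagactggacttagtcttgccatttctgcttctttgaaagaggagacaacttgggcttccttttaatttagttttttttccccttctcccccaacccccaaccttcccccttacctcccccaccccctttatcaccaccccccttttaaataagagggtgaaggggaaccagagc

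In the RefSeq promoter table, 14 of the 24 genes higher in SD and 4 of the 9 lower had an entry by symbol. GCGTG was present on either strand in 6 of the 14 (42.9%) and in 1 of the 4 (25.0%), compared with 51.1% of 10568 tested genes and 36.3% of all 27305 promoters. A match is a description of the letters in this window and not of binding.

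The matrix-remodelling genes held 1 call. MMP2 (chr16:55389700-55506691), a gelatinase that degrades collagen IV, was at 17.7, 14.2 and 15.7 CPM in SA and at 25.3, 23.6 and 24.7 in SD. All SD libraries were above the other 9 (log2 fold change 0.63, SE 0.11, adjusted p = 0.0154). The call was lost without SA replicate 2 (0.163) or SA replicate 3 (0.0682). Of 23 tested metalloproteinases and inhibitors, 16 were higher in SD and 7 lower (median 0.05), and MMP16, ADAM12 and ADAMTS12 were the other members higher at an unadjusted p under 0.05. Over all tested genes, 4.52% were higher at that p. PAPPA, a metalloproteinase that cleaves IGF-binding proteins, was at 289.8, 279.0 and 275.1 CPM in SA and at 368.6, 340.6 and 333.1 in SD (0.31, SE 0.06, adjusted p = 0.0206). PAPPA-AS1, an antisense RNA that lies wholly within PAPPA exons, moved in parallel from 57.9 ± 2.51 to 75.7 ± 6.34 CPM (s.d., n = 3). Whether the counting used strand is not given in the sources used here, so the reads of both cannot be told apart, and their sum was higher in SD as well (0.32, adjusted p = 0.0207). The call of PAPPA was lost without SA replicate 2, SA replicate 3, SD replicate 1 or SD replicate 2 (0.0535 to 0.172), and that of PAPPA-AS1 without any SA library or without SD replicate 1 (0.0637 to 0.163). Among the 15 tested genes of the IGF axis, PAPPA was the only one called. IGFBP2 had a log2 fold change of −0.35 (adjusted p = 0.217) and IGFBP7 of 0.47 (adjusted p = 0.517).

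Complement genes had a higher median than the matrix lists. Complement is a cascade of plasma proteins, made in the liver and also by epithelial cells, that marks and lyses targets. C3, its central component, was at 230.7, 192.0 and 181.5 CPM in SA and at 314.9, 268.5 and 257.3 in SD. The SD libraries were above all 9 others (log2 fold change 0.48, SE 0.08, adjusted p = 0.0089). C1S, a protease of the C1 complex, was at 45.4, 42.0 and 40.7 CPM in SA and at 63.7, 62.0 and 49.5 in SD (0.45, SE 0.09, adjusted p = 0.0345). Both calls were lost without SA replicate 2 (0.133 for C3 and 0.203 for C1S) or SA replicate 3 (0.0719 and 0.198). That of C1S was also lost without SD replicate 1 (0.146) or SD replicate 2 (0.209), and that of C3 with DESeq2 (0.114). Of 14 tested complement genes, 11 were higher in SD and 3 lower (median 0.22). At an unadjusted p under 0.05, 8 were higher, among them CFI (0.98, adjusted p = 0.0806), C5 (0.49, adjusted p = 0.144) and C1R (0.30, adjusted p = 0.223), and 1 was lower, the C1q-like gene C1QL1 (−0.38, adjusted p = 0.223). The shares over all tested genes at that p were 4.52% higher and 4.01% lower. Without SD replicate 3 the median rose to 0.33.

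The inflammatory genes called were PTGS2 and CXCL5. PTGS2 encodes cyclooxygenase 2, the inducible enzyme of prostaglandin synthesis. It was at 114.4, 86.1 and 98.0 CPM in SA and at 159.2, 137.9 and 132.7 in SD (log2 fold change 0.53, SE 0.09, adjusted p = 0.0063), and its call was lost without SA replicate 2 (0.0851). V was at 159 ± 10.5 CPM (s.d., n = 3), overlapping with SD. CXCL5, a neutrophil-attracting chemokine, was at 211.7, 219.8 and 219.5 CPM in SA and at 262.6, 267.2 and 261.0 in SD (0.28, SE 0.05, adjusted p = 0.0260), and here all V libraries (281.0 to 302.7) lay above all SD libraries. Its call was lost without any one SA library (0.0598 to 0.163) or without SD replicate 2 (0.193). In the list of NF-kB targets and chemokines, 13 of 22 tested members were higher and 9 lower (median 0.01). The cytokine gene IL6 was close to the counting floor, at 0.200, 0.598 and 0.883 CPM in SA and at 1.501, 2.47 and 1.96 in SD (1.77, SE 0.48, adjusted p = 0.199). CXCL1 (0.72, adjusted p = 0.356) and CXCL8 (0.96, adjusted p = 0.567) were also not called, and BIRC3, an inhibitor of apoptosis, had a log2 fold change of −0.21 (adjusted p = 0.449). Of 29 tested interferon genes, 20 were higher and 9 lower (median 0.10), none was called, and 4 (IFITM2, STAT2, IFIT1 and IFI6) were higher at an unadjusted p under 0.05. For all tested genes the share higher at that p was 4.52%.

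DIO2 encodes the type 2 iodothyronine deiodinase, which converts thyroxine to the active hormone. It was at 14.8, 13.8 and 14.8 CPM in SA and at 22.5, 21.6 and 23.5 in SD, with the SD libraries above all 9 others. The log2 fold change was 0.64 (SE 0.11, adjusted p = 0.0126). No other thyroid hormone gene was called. Of 12 tested members of the list, 5 were higher and 7 lower (median log2 fold change −0.01), and after DIO2 the one other at an unadjusted p under 0.05 was CPT1A (0.18, adjusted p = 0.379). The receptor gene THRB had a log2 fold change of 0.12 (adjusted p = 0.905). The call of DIO2 was lost without SA replicate 2 (adjusted p = 0.131).

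The remaining genes called higher belonged to none of the lists. SLC1A3, a glutamate and aspartate transporter, was at 35.9, 36.6 and 33.2 CPM in SA and at 58.0, 55.8 and 46.3 in SD (log2 fold change 0.60, SE 0.09, adjusted p = 0.00323). It was the only called gene higher in SD, among those with little shared sequence, that was called in all 6 fits leaving out 1 library. ANTXR1, a cell surface receptor for collagen, was at 140.8, 158.2 and 159.9 CPM in SA and at 186.3, 189.7 and 191.2 in SD (0.30, SE 0.06, adjusted p = 0.0331). GLIPR1, a secreted protein of the CAP family, was at 25.5, 26.6 and 29.5 CPM in SA and at 34.6, 37.7 and 38.7 in SD (0.45, SE 0.09, adjusted p = 0.0433), but it shares 21.1% of its sequences with the neighbouring KRR1, and the sum of both was not called (0.18, adjusted p = 0.430). NABP1, a single-stranded DNA-binding protein of the damage response, was at 52.5, 42.9 and 39.2 CPM in SA and at 67.3, 72.0 and 52.8 in SD (0.51, SE 0.11, adjusted p = 0.0477), where the lowest SD library barely exceeded the highest SA library. Of these, the calls of ANTXR1 (0.0620 to 0.189) and GLIPR1 (0.0637 to 0.216) held only without SD replicate 1, and that of NABP1 held only without SA replicate 1 or SD replicate 3 (0.128 to 0.312 in the others).

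The 4 genes called lower in SD, apart from those with shared sequence, were CEACAM6, CPLX2, HMGA1 and DUSP5. CEACAM6 (chr19:41750977-41772211), a cell adhesion molecule of the carcinoembryonic antigen family, was at 35.5, 30.1 and 28.2 CPM in SA and at 18.1, 15.6 and 17.6 in SD. Every SD library was below all 9 others (log2 fold change −0.86, SE 0.11, adjusted p = 0.000594), and the call was made without any one of the 6 libraries, with an adjusted p of at most 0.00822. HMGA1, an architectural chromatin protein, was at 786.7, 821.6 and 851.3 CPM in SA and at 636.0, 664.3 and 713.2 in SD (−0.29, SE 0.06, adjusted p = 0.0338). DUSP5, a phosphatase that inactivates ERK and is itself induced by ERK signalling, was at 60.2, 68.8 and 75.3 CPM in SA and at 47.6, 51.6 and 55.3 in SD (−0.40, SE 0.08, adjusted p = 0.0469). CPLX2, a regulator of vesicle fusion, was at 201.7, 190.7 and 191.2 CPM in SA and at 153.3, 153.0 and 167.1 in SD (−0.30, SE 0.06, adjusted p = 0.0295), and both lines were far below V (416 ± 29.2 CPM, s.d., n = 3). These last 3 calls were lost without SA replicate 2 (0.163 to 0.205), SA replicate 3 (0.0940 to 0.306), SD replicate 1 (0.0710 to 0.172) or SD replicate 2 (0.184 to 0.238), and that of CPLX2 also without SA replicate 1 (0.0692). DUSP5 was the single call in the list of AP-1 and immediate early genes, of which 20 of 28 tested members were lower in SD and 8 higher (median −0.11). The AP-1 subunit gene FOSL1 was very even within each line, at 38.8, 38.7 and 38.9 CPM in SA and at 29.9, 30.1 and 29.7 in SD (−0.37, SE 0.08, adjusted p = 0.0761), and was not called. JUN (−0.35, adjusted p = 0.241), MAFF (−0.46, adjusted p = 0.481) and MYC (−0.17, adjusted p = 0.508) were among the 6 members lower at an unadjusted p under 0.05, and FOSL2 (0.20, adjusted p = 0.175) was the one that was higher. Among all tested genes, 4.01% were lower and 4.52% higher at that p.

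**Figure D4:**
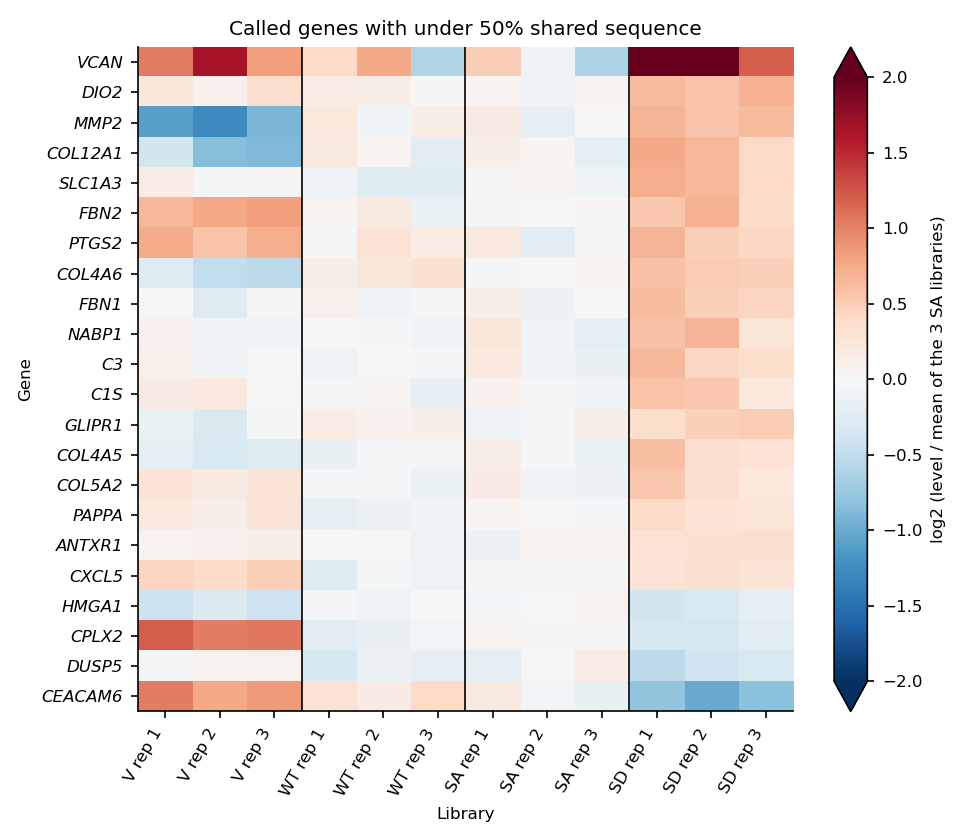
Level of 22 called genes with at most 50% shared sequence in each of the 12 libraries, as the log2 ratio to the mean of the 3 SA libraries (colour, red above and blue below, limits −2 and 2), ordered by the fold change between SD and SA. In every row the SD libraries do not overlap with the SA libraries. WT and SD overlap for DUSP5 and CPLX2. V is above SA, for example, for FBN2, PTGS2, CXCL5 and CPLX2 and below it for MMP2 and COL12A1.

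The V and WT lines place these differences. The comparisons below were all made in 1 fit of the 12 libraries and share the SD or the SA libraries, so they are given side by side and not as independent results. Of the 24 genes that SD expressed above SA, 17 were also called higher in SD than in WT (0.628% of 15453 tested genes), and of the 9 lower, 4 were called lower than in WT (0.272%). Between WT and SA, none of the 24 was called, and no tested gene was called higher in WT (0%). FAM220A and ENSG00000268173 were called lower in WT than in SA (0.0324% of tested genes). FBN1 differed by 0.52 on the log2 scale from WT to SD and by −0.0024 from SA to WT. For C3 the values were 0.53 and −0.05, and for CEACAM6 they were −1.14 and 0.28. Against V, 13 of the 24 were called higher in SD (2.83%) and 1 lower (2.37%), and of the 9 lower genes, 5 were called lower in SD and ENSG00000283321 was called higher. SA against V gave 3 of the 24 higher (3.24%), namely COL12A1, COL4A6 and MMP2, and 8 lower (2.72%), among them CXCL5, FBN2, PAPPA and PTGS2. The 24 genes therefore held different orders of the lines. For 12 of them the SD libraries lay above the other 9 (1.43% of tested genes), for CXCL5 all V libraries lay above SD, and for 8, SD and V overlapped. MMP2 was lowest in V (7.50 ± 0.919 CPM), between these in WT (16.9 ± 1.75) and SA (15.9 ± 1.79), and highest in SD (24.5 ± 0.876, s.d., n = 3). PTGS2 was lower in WT (109 ± 11.4 CPM) and SA (99.5 ± 14.2) than in SD (143 ± 14.01) and V (159 ± 10.5, s.d., n = 3). Of the 9 lower genes, CEACAM6 and HSPA1B had SD libraries below all 9 others (1.12%), HSPA1B only barely.

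In the list of AHR targets, 9 genes were tested, and CYP1A1, CYP1A2 and UGT1A6 were too low to be tested. Of the 9, 3 were higher and 6 lower (median log2 fold change −0.06), and none was called. At an unadjusted p under 0.05, 2 were lower, ALDH3A1 and TIPARP, and none higher. Among all tested genes, 4.01% were lower and 4.52% higher at that p. TIPARP was at 29.6, 29.0 and 33.6 CPM in SA and at 25.6, 25.1 and 25.3 in SD, without overlap (−0.28, SE 0.10, adjusted p = 0.385). CYP1B1 was at 81.4 ± 1.90 CPM in SA and 78.6 ± 1.97 in SD (s.d., n = 3, adjusted p = 0.892). CYP1A1 was at 0.618 ± 0.275 CPM in SA and 0.670 ± 0.282 in SD (s.d., n = 3). ALDH3A1, an aldehyde dehydrogenase, had a log2 fold change of −0.18 (adjusted p = 0.294). Its SD libraries lay below the 9 others, as did those of 1.12% of tested genes. Of 13 AHR partners and chaperones, 6 were higher and 7 lower, none was called, and the largest change was that of the dimerisation partner ARNT (0.21, adjusted p = 0.443).

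Markers of the mesenchymal and epithelial states were mixed. Of 16 tested mesenchymal markers and EMT factors, 9 were higher and 7 lower (median 0.08), and the 2 calls were MMP2 and VCAN, described above. Over all tested genes, 0.16% were called higher. The intermediate filament gene VIM was at 1259, 1332 and 1337 CPM in SA and at 1178, 1223 and 1288 in SD (−0.09, SE 0.06, adjusted p = 0.682). N-cadherin, CDH2, was at 38.2 ± 2.19 CPM in SA and 41.8 ± 2.92 in SD (s.d., n = 3; 0.13, adjusted p = 0.688). E-cadherin, CDH1, was at 118.6, 115.5 and 102.6 CPM in SA and at 130.1, 131.6 and 116.6 in SD, with overlapping ranges (0.17, SE 0.07, adjusted p = 0.504). Of 12 tested epithelial markers, 6 were higher and 6 lower and none was called.

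PLK1, the kinase that the study places upstream of S489, was at 186.6, 189.0 and 180.7 CPM in SA and at 154.7, 165.9 and 156.0 in SD. The SD libraries were below all 9 others, and the gene was not called (log2 fold change −0.22, SE 0.06, adjusted p = 0.155). It was called by edgeR's exact test (adjusted p = 0.0429) and in the fit of all 12 libraries (0.0462). Among the G2M genes, 39 of 54 were lower and 15 higher (median −0.06). There was no call, and 6 were lower at an unadjusted p under 0.05, against 4.01% of all tested genes. AURKB, the Aurora kinase of the chromosomal passenger complex, had the smallest p of these (−0.25, adjusted p = 0.150). Of the 43 S phase genes, 27 were lower and 16 higher (median −0.04). All 13 mitochondrially encoded genes were higher in SD, with log2 fold changes of 0.12 to 0.37 and a median of 0.17. Of these genes, 7 were at an unadjusted p under 0.05, against 4.52% of all tested genes, and none was called. Their share of all counts was 6.08% to 7.30% in SA and 6.69% to 8.37% in SD, so the libraries overlapped.

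**Figure D5:**
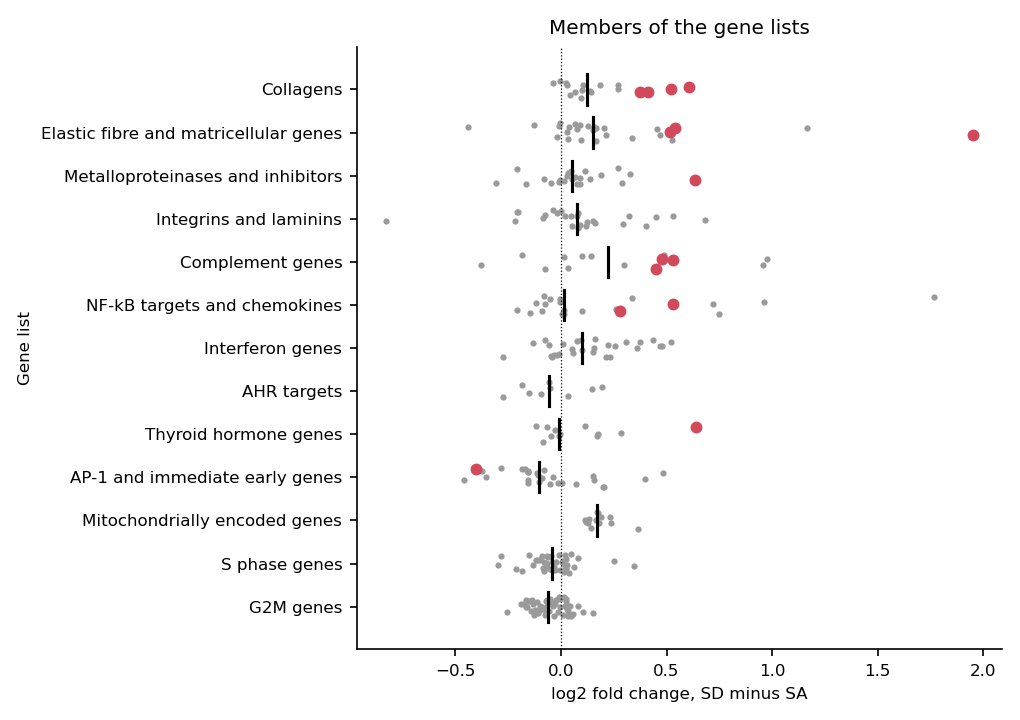
Log2 fold changes (SD minus SA) of the tested members of 13 gene lists, 1 point a gene, with called genes in red and the median of each list as a black bar. Collagens, elastic fibre genes and complement genes lie mostly above 0 with medians of 0.12, 0.15 and 0.22, while AHR targets (−0.06) and AP-1 genes (−0.11) lie mostly below.

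Across all 34 lists, 608 genes were tested and 16 were called. They lie in 9 lists, and 17 called genes are in none. Over all tested genes, 0.22% were called. The lists were chosen with earlier results of these data known, so these counts are not independent support. Lists without a call included TGF-beta response genes (12 of 23 higher, median 0.03), YAP and TEAD targets (9 of 20 higher, median −0.03), NRF2 targets (11 of 28 higher, median −0.04), sterol synthesis genes (13 of 28 higher, median −0.01), hypoxia and glycolysis genes (12 of 34 higher, median −0.06) and p53 targets (9 of 24 higher, median −0.03). In the YAP and TEAD list, the receptor tyrosine kinase AXL was at 445.1, 450.1 and 460.0 CPM in SA and at 383.6, 369.7 and 391.8 in SD, without overlap (log2 fold change −0.24, SE 0.05, adjusted p = 0.0761). It was not called by the main test, and it was called by DESeq2 (adjusted p = 0.0013). The list of histone genes, nearly all of them replication-dependent, whose mRNAs mostly lack the poly(A) tail used for enrichment, had 15 of 18 tested members higher and a median of 0.27, with no call, and the median ranged from 0.17 to 0.36 over the alternatives. The summed level of the list was not higher in SD, at 310 to 335 CPM in SA and 303 to 320 in SD, with overlapping ranges.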

How the data were processed

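Poly(A)-enriched RNA from 3 biological replicates of each A549 line was sequenced. The authors trimmed reads with Trimmomatic 0.39, estimated abundances on GRCh38 with RSEM, and deposited a table of expected counts for 60623 genes without normalization. Another deposited table holds only the authors' own fold changes, p-values and q-values for comparisons between the lines, and was not used. Expected counts were rounded to whole numbers (3.50% to 3.61% of values in the SA and SD libraries were not whole). Genes were kept by filterByExpr of edgeR 4.0.16 (minimum count 10, minimum total 15), scaled by TMM, and tested between SD and SA in the 6 libraries with glmQLFit and glmQLFTest, with Benjamini-Hochberg adjustment over 15030 genes and a threshold of 0.05. Log2 fold changes are SD minus SA, and the SE was taken from the F statistic. A gene that passed the filter only through one line had to differ between the lines. DESeq2 1.42.0, edgeR's exact test, other filters, all 12 libraries and fits without 1 library were alternatives, and the fit was tested on simulated data. Sequence shared between genes was counted as 50-base sequences of GENCODE v44 transcripts, and genes of the table sharing at least 15% with a called gene were summed with it. Promoters were those of RefSeq (GRCh38.p14), the first entry of each symbol. Named genes are the called genes, up to 4 members of each list by smallest p, a few further members of each list described, and AHR, PLK1, DIO2, CDH1, CDH2, VIM, CYP1A1, CYP1B1 and TIPARP by name. The members and gene lists were chosen with earlier results of these data known. Library pairs of 1 line differed by 2.4 to 6.4 times the sampling noise (chi-square per degree of freedom), so none was counted as a copy. The values of some listed genes, 1 of them a called gene, are not reported here.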

Additional observations from a re-analysis of the deposited data

How the results depend on the processing

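The call count of 33 was 29 to 42 with a stricter filter, DESeq2 size factors, DESeq2, all 12 libraries or unrounded counts. It was 153 with every gene that had at least 1 count (25906 genes tested), 98 with edgeR's exact test and 20 with counts summed over genes that share sequence, which was added after seeing the data. Without 1 library it ranged from 11 to 56, and 8 to 30 of the 33 calls were made again. DESeq2 made 27 of the 33 again among 37 calls, and the fit of all 12 libraries made 30 again among 42. VCAN, ZBTB45P1 and ENSG00000268173 were among those that DESeq2 did not call. The AHR sum ranged from −0.45 to −0.38 without 1 library (adjusted p at most 0.0248) and was called in every alternative run. With the replicate number as a block, 165 genes were called, 92 higher and 73 lower, all 33 among them. Same-numbered SA and SD libraries had correlated deviations of 0.09, 0.04 and 0.07, below 0.1, so the numbers were not taken as pairs. Each library nevertheless correlated best with its own number, and a value below 0.1 does not show that the libraries were unpaired. Summing reversed ENSG00000093100 (−0.055), ENSG00000257524 (−0.065), ENSG00000268173 (0.0023) and ENSG00000286075 (−0.35), each of which shares sequence with the genes it was summed with. CD68, not called, ranged from −0.13 to 0.012 without 1 library and reversed without SA replicate 3. A fit without 1 library rests on 5 libraries, and a p that misses the threshold there does not show that the lines did not differ. The smallest called change was 0.28 on the log2 scale.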
